A study of Mus musculus with 16 samples.

Results

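The adipocyte progenitor markers are 10 genes that are used to recognise or sort the precursor cells of fat: Pdgfra, Pdgfrb, Dpp4, Pi16, Ly6a, Cd34, Ccn5 (Wisp2 in older annotation), Icam1, Dcn and Thy1. They were taken by name, through the RefSeq accession of each array probe, and not by a filter on their values. Earlier results of these data were known when they were chosen. The array carried 14 probes for them among 41174 probes, and all 10 genes were among the 15468 that were tested. The arrays came from brown adipose tissue of knockout mice, brown tissue of control mice, white adipose tissue of knockout mice and white tissue of control mice, with 4 arrays in each group. All mice were male. The knockout mice (AdipoKO) lacked the glucocorticoid receptor, a steroid-activated transcription factor encoded by Nr3c1, in adipose tissue specifically, and the controls (CTL) were called wild-type in the series' design text. The Cre driver, the deleted exon, the age of the mice and the fat depots are not given in the sources used here, and no treatment is named. Each array measured total RNA of a whole piece of tissue. The study compared the genotypes within each tissue and the tissues within each genotype.

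Fat tissue holds, beside adipocytes, a stromal compartment whose fibroblast-like cells divide and differentiate into new adipocytes. In mice these precursors carry the platelet-derived growth factor receptor alpha (Pdgfra). A reservoir of interstitial progenitors in the connective tissue around the depot is marked by Dpp4 and Pi16, and more committed preadipocytes are marked by Icam1. Glucocorticoids are a standard part of the hormone mixture that drives preadipocytes to differentiate in culture. Several of the 10 genes are also made by other cells: Thy1 and Dpp4 by T cells, Cd34 and Ly6a by endothelial and blood-forming cells, Pdgfrb by pericytes, and Icam1 by endothelium and leukocytes. In RNA of whole tissue, fewer cells of a type and less RNA per cell cannot be told apart.

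Because the deleted protein is a transcription factor, the promoters of the members were searched for its recognition sequence. RefSeq promoters of 300 bases around the start of transcription (assembly GRCm38.p6) were at hand for 5 members, Pdgfra, Dpp4, Pi16, Cd34 and Icam1. The receptor's half-site AGAACA, searched on both strands (TGTTCT on the other), was in the promoters of Dpp4 and Pi16, at base 48 and base 224 counted from 1 at the 5′ end. It was in 19.0% of all 32851 promoters in the table. The full palindrome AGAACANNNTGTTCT, which contains the half-site at both ends, was in no member's promoter and in 3 of all promoters (0.00913%). A binding sequence of the inflammatory factor NF-kappa B, GGAAATTCC (GGAATTTCC on the other strand), was at base 98 of the Icam1 promoter and in 0.317% of all promoters. The 3 promoters with a match are shown because their genes mark the interstitial and the committed progenitors and had mean knockout differences of unlike sign. They were thus picked with the values known. The differences were positive for Dpp4 and Icam1 and negative for Pi16 in both tissues, and none was called. On white knockout array 1 all 3 genes were below the white controls. The promoters lie at chr2:62412182-62412481 on the minus strand (Dpp4), chr17:29318632-29318931 on the plus strand (Pi16) and chr9:21015690-21015989 on the plus strand (Icam1). The capitals mark the matches.
Dpp4: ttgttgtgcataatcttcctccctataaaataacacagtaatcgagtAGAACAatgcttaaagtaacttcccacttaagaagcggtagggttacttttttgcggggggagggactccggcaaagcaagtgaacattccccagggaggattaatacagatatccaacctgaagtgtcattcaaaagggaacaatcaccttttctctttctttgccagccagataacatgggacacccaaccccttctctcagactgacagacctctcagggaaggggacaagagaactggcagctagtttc
Pi16: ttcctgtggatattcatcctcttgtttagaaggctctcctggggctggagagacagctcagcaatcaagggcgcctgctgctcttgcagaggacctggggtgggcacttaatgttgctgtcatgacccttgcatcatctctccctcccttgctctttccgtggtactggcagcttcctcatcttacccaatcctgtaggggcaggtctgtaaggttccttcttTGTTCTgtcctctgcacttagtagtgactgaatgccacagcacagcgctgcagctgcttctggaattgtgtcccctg
Icam1: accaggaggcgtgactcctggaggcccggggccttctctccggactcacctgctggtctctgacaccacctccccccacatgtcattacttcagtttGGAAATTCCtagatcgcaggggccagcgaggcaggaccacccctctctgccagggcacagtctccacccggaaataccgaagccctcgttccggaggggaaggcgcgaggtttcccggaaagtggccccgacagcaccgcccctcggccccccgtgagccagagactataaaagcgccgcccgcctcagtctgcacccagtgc
A match is a stretch of letters and shows no binding. The absence of a match says only that these letters are not in this window.

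On each array 67.3% to 77.0% of spots were called well above background by the scanner software, which marked none as saturated. Levels below are log2 intensities relative to the 75th percentile of the array, and the level of one probe is not set against that of another. There were 24 pairs of arrays from the same group, and in 9 of them the arrays differed by less than the error given for single spots. Such arrays were averaged and counted as 1 sample, although the design text calls all 4 arrays of a group biological replicates. This left 2 brown knockout samples (array 1, and arrays 2, 3 and 4), 3 brown control samples (array 1, arrays 2 and 3, and array 4), 2 white knockout samples (array 1, and arrays 2, 3 and 4) and 2 white control samples (arrays 1 and 4, and arrays 2 and 3). Nothing in the labels says that the samples came from separate animals beyond the word biological. Nr3c1 lay between 1.58 and 1.82 on the brown knockout arrays, against 2.34 to 2.70 on the brown control arrays. Its white values were 1.30 to 1.58 on the knockout arrays, against 2.08 to 2.49 on the control arrays. The differences were -0.85 ± 0.21 (SE) in brown and -0.89 ± 0.23 in white. Nr3c1 itself was not called (limma adjusted p = 0.620 and 0.413). Its other probes were at -0.35, -0.64 and -0.81 in brown and at -0.99, -0.23 and -1.10 in white. The labels were checked against defining genes. Adipoq, the adipocyte hormone adiponectin, was at 6.66 or more on every array. Ucp1, the heat-producing protein that defines brown fat, was at 5.70, 5.92, 5.83 and 5.86 on the brown knockout arrays, against 6.61, -0.75, -0.75 and 8.13 on the brown control arrays. On the white arrays it lay between -2.44 and -0.84 in knockouts and between -1.84 and -1.58 in controls. The brown control sample on arrays 2 and 3 was therefore close to white tissue for this gene. It was so too for Cidea, a lipid droplet protein abundant in brown fat, at 2.83 against 7.59 and 8.71 in the other brown controls, and for Elovl3, a fatty acid elongase of brown fat, at -4.66 against 1.53 and 2.52. Cox7a1, a mitochondrial gene of brown fat and muscle, was at 8.02 in this sample and at 7.67 and 8.06 in the others. The sample goes against its brown label for the first 3 genes and not for Cox7a1. The members' differences between genotypes in brown tissue and between control tissues are given with it, and later without it. Skeletal muscle genes were bright in all brown samples, with Acta1 between 7.66 and 9.11.

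Taken as a set, the progenitor markers were lower on average in knockout tissue, but no member passed the test over all genes in either tissue. In brown tissue 6 of 10 members had a lower mean in the knockout, with a median log2 difference of -0.47, beside a median of -0.12 over all genes. In white tissue 7 of 10 were lower, with a median of -0.55 beside -0.03 over all genes. With limma and Benjamini-Hochberg adjustment over all genes, 0 members were called in each tissue, as were 0 of the 15468 genes (0%). The unadjusted p was below 0.05 for 2 members in brown (Ccn5 and Dcn), with 1085 of all genes, and for 2 in white (Ccn5 and Cd34), with 1540 of all genes. All 4 brown knockout arrays lay below all 4 control arrays for 5 members, Pdgfra, Pdgfrb, Cd34, Ccn5 and Dcn, where 16.4% of all genes did so. They lay above all 4 controls for 2 members, Dpp4 and Thy1, where 11.5% of all genes did so. In white tissue all 4 knockout arrays lay below all 4 controls for 4 members, Pi16, Ly6a, Cd34 and Ccn5, where 18.3% of all genes did so, and above them for 0 members, where 11.1% did so. These counts take arrays, and arrays averaged as 1 sample are not separate units. With each of the 16 arrays entered as its own sample, 6 members passed in brown and 9 in white, in a fit that called 30.6% and 44.8% of all genes.

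**Figure D1:**
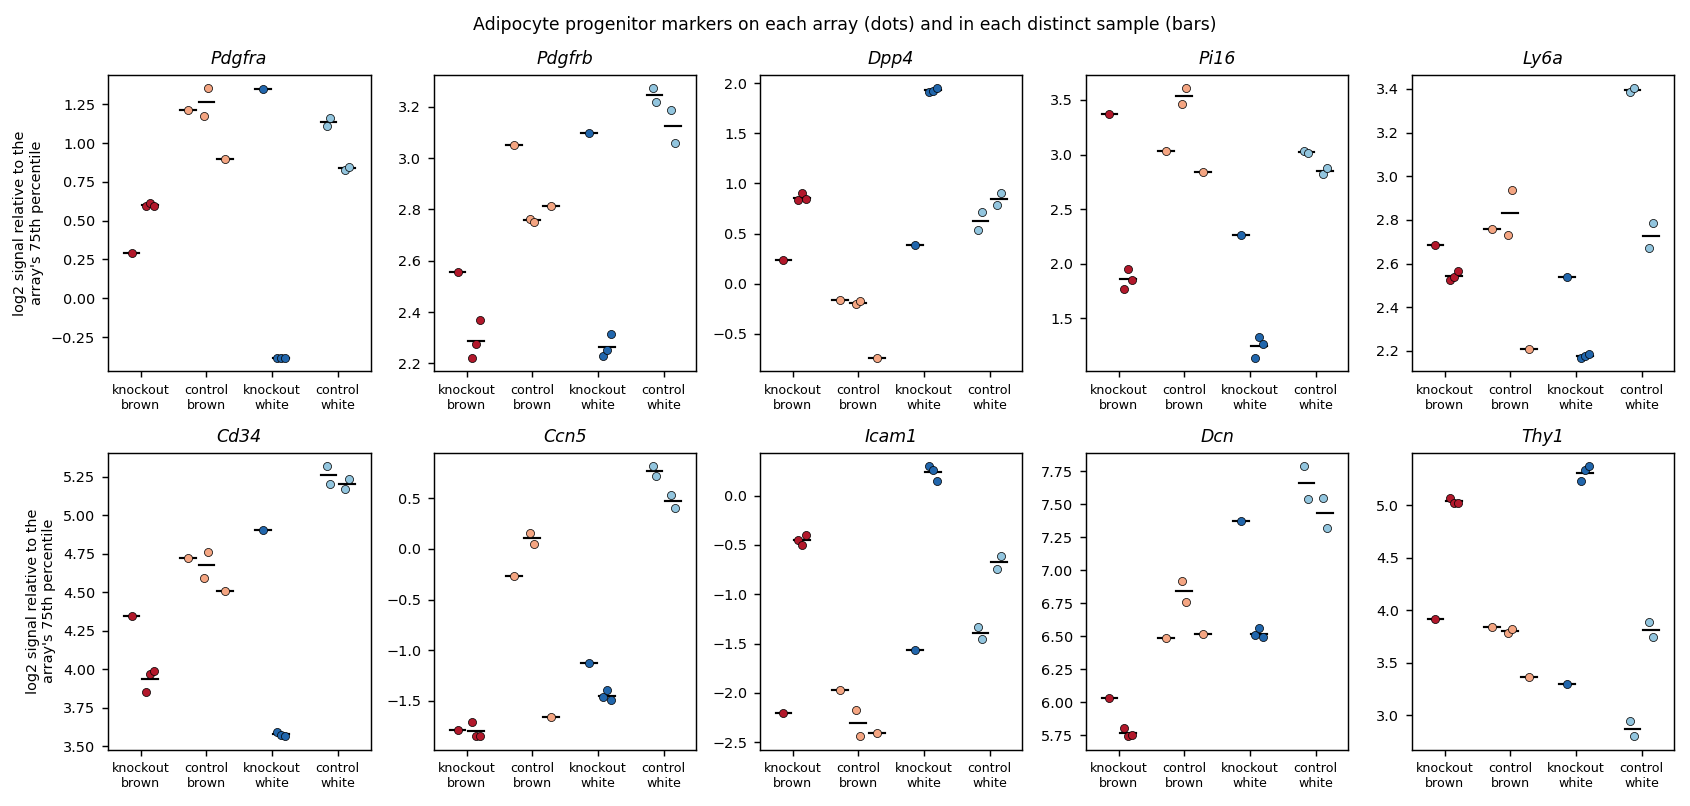
Level of each progenitor marker (vertical axis, log2 signal relative to the array's 75th percentile, with its own scale in each panel) in knockout brown, control brown, knockout white and control white tissue. Dots are arrays and bars are means of the arrays counted as 1 sample. Ccn5 is below its controls on every knockout array, while Icam1 and Thy1 are high on knockout arrays 2, 3 and 4 of both tissues.

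Ccn5 had the largest negative difference of the 10 in both tissues. It encodes a secreted matricellular protein of the CCN family that mesenchymal precursors release. It stood at -1.79, -1.71, -1.85 and -1.85 on the brown knockout arrays, against -0.26, 0.16, 0.05 and -1.66 on the brown control arrays. In white tissue it stood at -1.12, -1.46, -1.39 and -1.49 on the knockout arrays, against 0.82, 0.54, 0.41 and 0.72 on the control arrays. Every knockout array was below every control array of its tissue, with a wide gap in white and with brown control array 4 close to the knockouts. The difference was -1.19 ± 0.49 (SE, 2 knockout and 3 control samples) in brown, or 56.2% less signal (unadjusted p = 0.046, limma adjusted p = 0.620). It was -1.91 ± 0.54 (SE, 2 knockout and 2 control samples) in white, or 73.3% less signal (unadjusted p = 0.0094, limma adjusted p = 0.425). The brown difference was -1.72 without the control sample on array 4 and -0.83 without the one on arrays 2 and 3. Within the slides that held both genotypes, on arrays of the same samples, it was -0.95 in brown and -1.86 in white. Both knockout samples of a tissue were alike for this gene, at -1.18 and -1.20 from the control mean in brown and at -1.74 and -2.07 in white.

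Dcn encodes decorin, a small proteoglycan that binds collagen and is abundant in fibroblasts and adipocyte precursors. Its levels were 6.03, 5.80, 5.74 and 5.75 on the brown knockout arrays, against 6.49, 6.92, 6.76 and 6.52 on the brown controls. White levels were 7.37, 6.51, 6.56 and 6.49 in the knockout, against 7.79, 7.55, 7.32 and 7.54 in controls. The brown groups did not overlap, whereas white knockout array 1 lay among the controls. The differences were -0.72 ± 0.29 (SE) in brown (unadjusted p = 0.044, limma adjusted p = 0.620) and -0.60 ± 0.32 in white (limma adjusted p = 0.535). Other genes of the connective tissue matrix had lower means as well. Of 14 fibroblast matrix genes, 0 were called in either tissue, while all 14 had lower means in the knockout, with a median difference of -0.70 in brown and -0.99 in white. Lum, the related proteoglycan lumican, was at -0.96 ± 0.36 (SE) in brown tissue (limma adjusted p = 0.620). Fbn1, the microfibril protein fibrillin, was at -1.72 ± 0.62 in white tissue (limma adjusted p = 0.463).

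The PDGF receptors are the tyrosine kinases through which platelet-derived growth factors reach precursors and pericytes. Pdgfra, the alpha receptor, was at 0.29, 0.59, 0.62 and 0.59 on the brown knockout arrays, against 1.21, 1.18, 1.35 and 0.89 on the brown controls. In white tissue it was at 1.35, -0.38, -0.38 and -0.38 in the knockout, against 1.11, 0.83, 0.85 and 1.16 in controls. All brown knockout arrays were below the controls, but in white the knockout samples lay on opposite sides of them. The probe that represents Pdgfra was spotted 9 to 10 times per array after outliers were left out, and its spots had a median SD of 0.069 on the log2 scale. The white knockout samples differed by 1.73. The differences were -0.68 ± 0.47 (SE) in brown and -0.50 ± 0.52 in white, with limma adjusted p of 0.632 and 0.697. Without white knockout array 1 the white difference was -1.37, and without arrays 2, 3 and 4 it was 0.36. Either choice leaves 1 white knockout sample, which is assumed to vary as the samples of the other groups do. A second, dim probe of Pdgfra had differences of -0.71 in brown and -0.30 in white.

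Pdgfrb, the beta receptor, which pericytes also carry, was at 2.56, 2.22, 2.27 and 2.37 on the brown knockout arrays, against 3.05, 2.76, 2.75 and 2.81 on the brown controls. White levels were 3.10, 2.23, 2.25 and 2.31 in the knockout, against 3.27, 3.19, 3.06 and 3.22 in controls. Again the brown groups did not overlap and white knockout array 1 lay within the control range. The differences were -0.45 ± 0.28 (SE) in brown and -0.50 ± 0.31 in white (limma adjusted p = 0.620 and 0.564). Of the 4 PDGF ligands and the receptor-like gene Pdgfrl, 0 of 5 were called in either tissue; 5 had lower means in brown and 4 in white, with median differences of -0.49 and -1.03. Pdgfd, a ligand of the beta receptor, had differences of -1.06 ± 0.62 (SE) in brown and -1.82 ± 0.68 in white (limma adjusted p = 0.620 and 0.470).

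**Figure D2:**
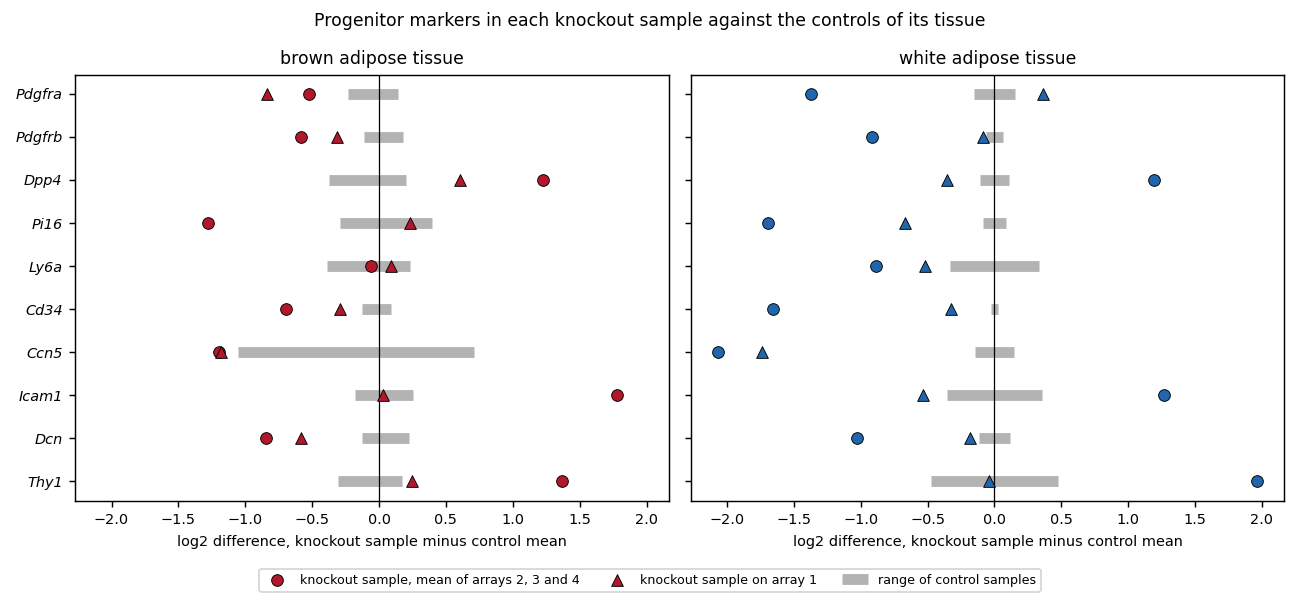
Log2 difference (horizontal axis) of each knockout sample from the control mean of its tissue, for 10 progenitor markers, with brown tissue on the left and white on the right. Circles are the sample on arrays 2, 3 and 4, triangles the sample on array 1, and grey bars the range of the control samples. Both samples of a tissue are low for Ccn5 and Cd34, whereas Dpp4, Icam1 and Thy1 are high in the white sample on arrays 2, 3 and 4 and not in the white sample on array 1.

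Dpp4 and Pi16, whose promoters are shown above, mark the same interstitial progenitors in mouse fat, and their mean differences had opposite signs. In the knockout samples on array 1 both genes lay on the same side of the control mean. Dpp4 was at 0.60 and Pi16 at 0.23 in brown, and they were at -0.35 and -0.67 in white. The brown value of Pi16 was within the range of the control samples. Dpp4, a cell-surface peptidase also known as CD26, was at 0.24, 0.83, 0.90 and 0.84 on the brown knockout arrays, against -0.17, -0.21, -0.17 and -0.74 on the brown controls. In white it was at 0.38, 1.92, 1.92 and 1.95 in the knockout, against 0.53, 0.79, 0.90 and 0.72 in controls. Every brown knockout array was above the controls, while the white knockout samples lay 1 above and 1 below them. The differences were 0.91 ± 0.47 (SE) in brown and 0.42 ± 0.51 in white (limma adjusted p = 0.620 and 0.739). A second probe of Dpp4 showed nearly the same values, 0.92 in brown and 0.58 in white, and a further, dim one was at 0.56 in brown and -0.14 in white.

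Pi16, a secreted peptidase inhibitor-like protein of fibroblasts, stood at 3.37, 1.77, 1.95 and 1.85 on the brown knockout arrays, against 3.03, 3.46, 3.61 and 2.84 on the brown controls. White values were 2.26, 1.14, 1.33 and 1.27 in the knockout, against 3.03, 2.82, 2.87 and 3.02 in controls. White knockout arrays were all below the controls, whereas brown knockout array 1 was among them. The differences were -0.52 ± 0.51 (SE) in brown and -1.18 ± 0.55 in white (limma adjusted p = 0.688 and 0.512). Without the brown knockout sample on arrays 2, 3 and 4 the brown difference was 0.23, and without the one on array 1 it was -1.28.

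Of 10 further genes of the DPP4+ interstitial progenitors, 0 were called in either tissue. Their means were lower in 7 genes in brown and in 8 in white, with median differences of -0.36 and -0.62. Cd248, the stromal surface protein endosialin, was at 3.16, 3.0, 2.85 and 2.95 on the brown knockout arrays, against 3.84, 3.93, 3.80 and 3.71 on the brown controls. In white it was at 3.98, 2.05, 2.09 and 2.04 in the knockout, against 4.70, 4.52, 4.34 and 4.59 in controls, a difference of -1.52 ± 0.55 (SE, limma adjusted p = 0.463). All its knockout arrays were below the controls of their tissue. Cd55, a complement regulator, had a positive difference like that of Dpp4, 0.94 ± 0.45 (SE) in brown tissue (limma adjusted p = 0.620).

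Icam1, the adhesion molecule of the committed preadipocytes, lay at -2.20, -0.45, -0.50 and -0.40 on the brown knockout arrays, against -1.97, -2.18, -2.44 and -2.41 on the brown controls. White levels were -1.57, 0.30, 0.26 and 0.15 in the knockout, against -1.33, -0.74, -0.61 and -1.45 in controls. In both tissues knockout arrays 2, 3 and 4 were above all controls and knockout array 1 was not. The differences were 0.90 ± 0.66 (SE) in brown and 0.37 ± 0.73 in white (limma adjusted p = 0.639 and 0.832). The other genes of the committed preadipocyte lay on the opposite side on average. Of 8 such genes, 0 were called in either tissue, 8 had lower means in brown and 7 in white, and the median differences were -0.32 and -0.94. The 12 adipocyte genes had median differences of -0.30 and -0.96, and the part of mature adipocytes in the preadipocyte list was not tested. Lpl, the lipoprotein lipase that maturing adipocytes also make, was at -1.25 ± 0.56 (SE) in white tissue (limma adjusted p = 0.502), and Cd24a, a surface protein of some precursors, at 1.83 ± 0.71 (limma adjusted p = 0.487).

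Cd34 and Ly6a are surface proteins used to sort adipocyte precursors, and Ly6a is known as Sca-1. Cd34 was at 4.34, 3.85, 3.97 and 3.99 on the brown knockout arrays, against 4.72, 4.59, 4.76 and 4.51 on the brown controls. In white it was at 4.90, 3.60, 3.58 and 3.57 in the knockout, against 5.32, 5.17, 5.24 and 5.21 in controls. No knockout array overlapped with the controls of its tissue. The differences were -0.50 ± 0.38 (SE) in brown (limma adjusted p = 0.646) and -0.99 ± 0.41 in white (unadjusted p = 0.048, limma adjusted p = 0.498). Without white knockout array 1 the white difference was -1.65, and without arrays 2, 3 and 4 it was -0.33. Again 1 knockout sample was left, with its spread taken over from the other groups.

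Ly6a had levels of 2.69, 2.53, 2.54 and 2.56 on the brown knockout arrays, against 2.76, 2.73, 2.94 and 2.21 on the brown controls. White levels were 2.54, 2.17, 2.17 and 2.18 in the knockout, against 3.38, 2.67, 2.78 and 3.40 in controls. Brown knockout arrays were within the control range, and white ones were below it. The differences were 0.01 ± 0.30 (SE) in brown and -0.70 ± 0.33 in white (limma adjusted p = 0.987 and 0.510). The Ly6 genes are a family of close relatives in the mouse, and whether the probe also binds a related transcript was not tested.

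Thy1, the surface glycoprotein CD90 of fibroblasts, neurons and T cells, was at 3.91, 5.07, 5.02 and 5.02 on the brown knockout arrays, against 3.84, 3.78, 3.82 and 3.36 on the brown controls. White levels were 3.30, 5.23, 5.33 and 5.37 in the knockout, against 2.94, 3.88, 3.74 and 2.80 in controls. Knockout arrays 2, 3 and 4 were above all controls in both tissues, and knockout array 1 was just above them in brown and among them in white. The differences were 0.81 ± 0.64 (SE) in brown and 0.96 ± 0.70 in white (limma adjusted p = 0.652 and 0.611). The second probe of the gene gave larger differences, 2.21 ± 0.96 in brown and 1.27 ± 1.05 in white. Its white levels were -1.09, 2.09, 2.19 and 2.18 in the knockout, against -1.57, 0.06, 0.02 and -1.45 in controls.

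The knockout samples of a tissue differed from each other for many of the markers. In brown tissue the sample on arrays 2, 3 and 4 had 6 members below all control samples, 3 above and 1 within, and the sample on array 1 had 5 below, 2 above and 3 within. Over all genes, 44.8% were below and 27.7% above in that first sample, and 28.2% and 19.9% in the second. In white tissue the sample on arrays 2, 3 and 4 had 7 members below and 3 above (49.0% and 42.3% of all genes), and the sample on array 1 had 8 below, 1 above and 1 within (43.4% and 35.3% of all genes). The median member was at -0.55 and -0.13 from the control mean in the brown samples on arrays 2, 3 and 4 and on array 1, and at -0.97 and -0.34 in the same order in white. Dpp4, Icam1 and Thy1 were the 3 members above the controls in the samples on arrays 2, 3 and 4 of both tissues. The white knockout samples differed from each other by 1.55 for Dpp4, 1.80 for Icam1 and 2.01 for Thy1, and by -1.73 for Pdgfra and -1.33 for Cd34. White control samples differed by at most 0.94 over the members, for Thy1.

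Markers of other cell types moved with these samples. The 13 tested of 14 lymphocyte genes had a median of 4.54 from the control mean in the brown knockout sample on arrays 2, 3 and 4 and of 2.34 in the one on array 1, against 0.82, 0.09 and -1.23 in the brown controls. In white the medians were 2.99 and -0.87 in the knockout samples on arrays 2, 3 and 4 and on array 1, against -1.05 and 1.05 in the controls. Their summed level relative to the 75th percentile ranged over 31.3 to 135 in brown knockouts and 1.80 to 36.9 in brown controls. It was 13 to 201 in white knockouts and 7.19 to 38.8 in white controls. Cd3g, a chain of the T cell receptor complex, was at 0.66, 2.30, 2.19 and 2.18 on the brown knockout arrays, against -2.08, -2.17, -2.31 and -4.07 on the brown controls. In each tissue the sample with the highest lymphocyte median, the knockout sample on arrays 2, 3 and 4, was also the sample with the highest Dpp4, Icam1 and Thy1. No lymphocyte gene of the list passed the test in either tissue (11 of 13 means higher in brown and 12 of 13 in white), and the part of these cells in the values of Dpp4, Icam1 and Thy1 was not tested.

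Mural cell genes set the white knockout samples apart as well, with a median of -1.11 in the sample on arrays 2, 3 and 4 and of 1.43 in the one on array 1, against -0.02 and 0.02 in the white controls. Myh11, the smooth muscle myosin, was at 6.49 on white knockout array 1 and between 0.83 and 1.08 on arrays 2, 3 and 4, against 2.75 to 2.87 in the white controls. The summed level of the 9 mural genes was 53.1 to 448 in white knockouts and 114 to 133 in white controls, and 95.4 to 190 in brown knockouts and 199 to 310 in brown controls. Pdgfrb, which mural cells carry, was at 3.10 on array 1 and between 2.23 and 2.31 on arrays 2, 3 and 4. Endothelial genes had medians of -0.50 and -0.26 in the brown knockout samples on arrays 2, 3 and 4 and on array 1, and of -0.83 and -0.16 in the white ones. Their sums were 33.7 to 36.7 in brown knockouts, against 38.2 to 48.4 in brown controls, and 53.7 to 59.4 in white knockouts, against 65.4 to 67.1 in white controls. The mesothelial genes, which mark the lining around a depot, had medians of -3.58 in the white knockout sample on arrays 2, 3 and 4 and of 0.16 in the one on array 1, against 0.48 and -0.48 in the white controls. Adipocyte genes had a median of -1.80 in the white knockout sample on arrays 2, 3 and 4 and of -0.19 in the one on array 1, and of -0.48 and -0.14 in the brown knockout samples on arrays 2, 3 and 4 and on array 1. All 12 adipocyte genes had lower means in the knockout of both tissues, with median differences of -0.30 in brown and -0.96 in white. All 10 skeletal muscle genes had lower means in brown knockouts, with a median difference of -0.79, and a median of -1.19 in the sample on arrays 2, 3 and 4 and of -0.33 in the one on array 1. The summed level of the muscle genes was 1570 to 2711 in brown knockouts and 2887 to 4051 in brown controls. Of 10 skeletal muscle, 10 endothelial, 9 mural, 9 mesothelial, 12 macrophage and 12 adipocyte genes, 0 passed the test between genotypes in either tissue. The part of these cell types in the values of the 10 markers was not tested.

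**Figure D3:**
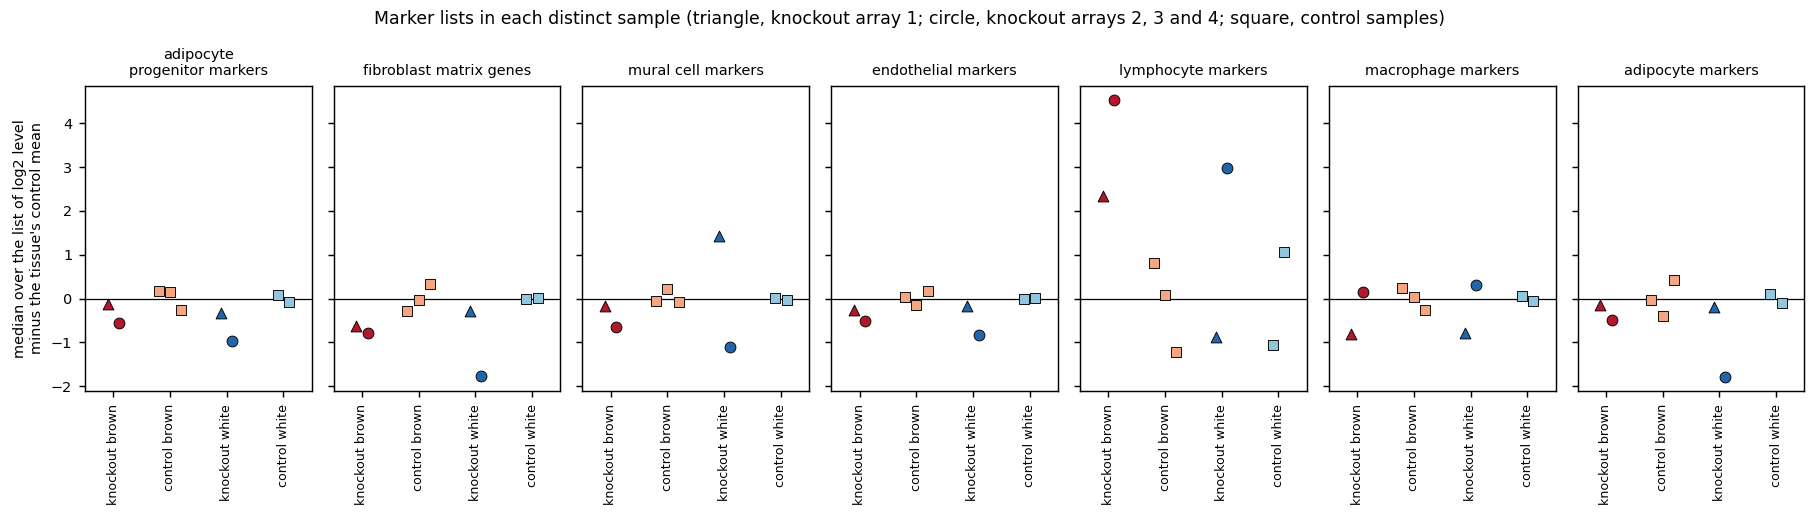
Median over each marker list (vertical axis) of the log2 level minus the control mean of the tissue, for every distinct sample of knockout brown, control brown, knockout white and control white tissue. The lymphocyte list reaches 4.54 and 2.99 in the knockout samples on arrays 2, 3 and 4, where the progenitor markers are at -0.55 and -0.97 and the fibroblast matrix genes at -0.79 and -1.77.

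Brown and white tissue were compared within each genotype, with the difference given as brown minus white. In knockout mice 7 of 10 members had lower means in brown tissue, with a median difference of -0.18 beside -0.04 over all genes, and in control mice 7 of 10 with a median of -0.53 beside -0.09. No slide held both tissues of a genotype. With 16 separate arrays and slide as a term, 6 of 10 members were higher in brown tissue of knockouts, with a median of 0.34. In controls 6 of 10 were then lower, with a median of -0.25, and 0 members were called in either genotype. No member was called in either genotype by limma at an adjusted p of 0.05, where 1.49% of all genes were called in knockouts (1.29% higher and 0.207% lower in brown) and 5.04% in controls (3.9% higher and 1.14% lower). With 16 separate arrays 1 member passed in knockouts, Dcn, where 25.7% of all genes did, and 4 passed in controls, Dpp4, Ccn5, Icam1 and Dcn, where 39.3% did. With the knockout samples paired across tissues as a replicate block, 2 members passed in controls, Icam1 and Dcn, in a fit that called 1889 genes there. This block left the control differences as they were and changed only the estimate of spread that the groups share. The unadjusted p was below 0.05 in knockouts for 1 member (Dcn), with 2364 of all 15468 genes. In controls it was below 0.05 for 2 members (Dcn and Ccn5), with 3533 of all genes. All 4 brown arrays lay below all 4 white arrays for 2 members in knockouts, Ccn5 and Dcn (13.4% of all genes), and for 6 in controls, Pdgfrb, Dpp4, Cd34, Ccn5, Icam1 and Dcn (26.2% of all genes). No member lay wholly above, where 13% of all genes did in knockouts and 22.1% in controls.

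Dcn had similar differences in both genotypes, -1.05 ± 0.32 (SE) in knockouts (unadjusted p = 0.013, limma adjusted p = 0.210) and -0.94 ± 0.29 in controls (unadjusted p = 0.015, limma adjusted p = 0.124), or 51.6% and 47.7% less signal in brown tissue. It passed in controls under quantile normalization (-1.49, limma adjusted p = 0.048). Ccn5 was at -0.51 ± 0.54 in knockouts and -1.23 ± 0.49 in controls (limma adjusted p = 0.725 and 0.199). Dpp4 was at -0.61 ± 0.51 in knockouts and -1.10 ± 0.47 in controls (limma adjusted p = 0.642 and 0.22), and Icam1 at -0.66 ± 0.73 and -1.19 ± 0.66 (limma adjusted p = 0.739 and 0.334). Pi16 was the member with the highest positive difference in knockouts, 0.86 ± 0.55, and was at 0.20 ± 0.51 in controls (limma adjusted p = 0.523 and 0.828). Pdgfra differed little on average, -0.04 ± 0.52 in knockouts and 0.14 ± 0.47 in controls. Without the brown control sample on arrays 2 and 3, Dcn was at -1.05 in controls, Ccn5 at -1.58, Dpp4 at -1.19, Icam1 at -1.16, Pi16 at 0.00075 and Pdgfra at 0.066. Pdgfrb was then at -0.25 (-0.31 with the sample), Cd34 at -0.62 (-0.60), Ly6a at -0.58 (-0.46) and Thy1 at 0.26 (0.32). The median member was at -0.60, and 0 members and 302 genes were called, against 779 genes with the sample.

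**Figure D4:**
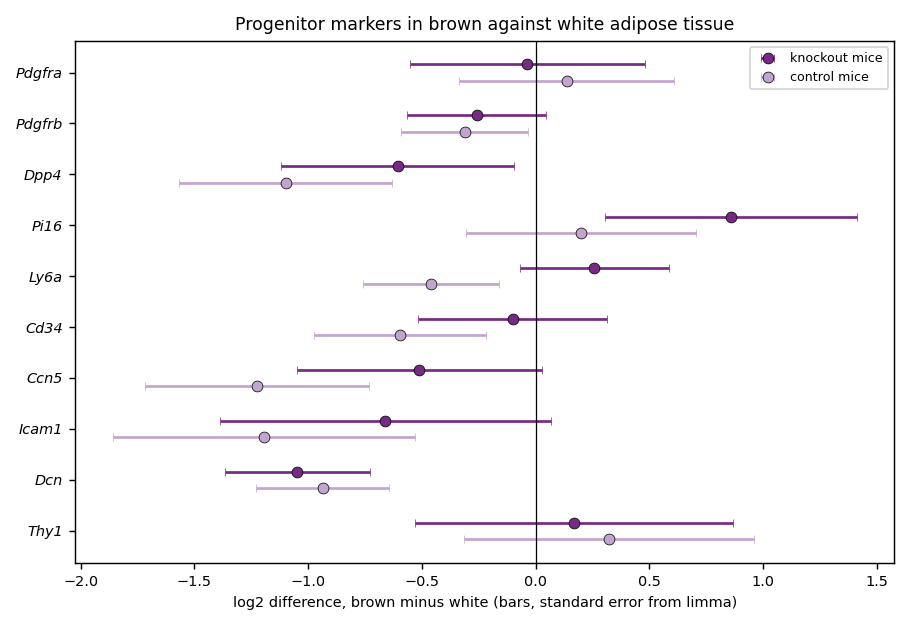
Log2 difference between brown and white tissue (horizontal axis, brown minus white) for each progenitor marker in knockout and in control mice. Dots are estimates and bars are standard errors from limma over 9 samples. Dcn is at -1.05 in knockouts and -0.94 in controls, and Pi16 and Thy1 lie right of 0 in both.

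Between the tissues, other progenitor genes passed the test with all 9 samples. The F3+ regulatory progenitors are stromal cells that restrain fat formation in mice. Of 5 of their genes 1 was called lower in brown than in white tissue of knockouts and 3 in controls. The means were lower in brown tissue for 4 of 5 genes in knockouts and 5 of 5 in controls, with medians of -1.93 and -1.71. Clec11a, a secreted growth factor of stromal cells, was at -1.74 ± 0.28 (SE) in knockouts (limma adjusted p = 0.035) and -1.71 ± 0.26 in controls (limma adjusted p = 0.014). Between genotypes all 5 genes of this list had lower means in the knockout of both tissues, with median differences of -0.60 in brown and -0.56 in white, and 0 were called. Clec11a levels were -1.96, -2.50, -2.53 and -2.42 on the brown knockout arrays, against -0.50, -0.51, -0.44 and -0.44 on the white knockout arrays. Gdf10, a BMP family ligand, was at -2.51 ± 0.46 in controls (limma adjusted p = 0.029), and Vit, the matrix protein vitrin, at -3.12 ± 0.64 (limma adjusted p = 0.042). Of 14 fibroblast matrix genes 0 passed in knockouts and 2 in controls, Mgp at -2.32 ± 0.48 (limma adjusted p = 0.043) and Fbln1 at -2.62 ± 0.54 (limma adjusted p = 0.043). Without the brown control sample on arrays 2 and 3 none of these calls remained. The control differences were then -1.70 for Clec11a (limma adjusted p = 0.062), -2.53 for Gdf10 (0.104), -2.95 for Vit (0.151), -2.36 for Mgp (0.138) and -2.72 for Fbln1 (0.128). The knockout difference of Clec11a was as before, with a limma adjusted p of 0.079. With that sample included, no gene passed among the 10 of the DPP4+ list, the 8 of the committed preadipocyte list and the 5 of the PDGF list in either genotype.

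Cell types other than precursors also differed between the tissues. With all 9 samples, all 12 macrophage genes had lower means in brown tissue of both genotypes. Their median differences were -1.33 in knockouts and -1.13 in controls. Of these genes 1 passed in each genotype, Mertk, at -1.26 ± 0.21 (SE, limma adjusted p = 0.039) in knockouts and -1.05 ± 0.19 (limma adjusted p = 0.028) in controls. All 10 skeletal muscle genes were higher in brown tissue of both genotypes, and without the brown control sample on arrays 2 and 3 all 10 passed in controls and 9 in knockouts (all but Ckm, limma adjusted p = 0.055). Of 10 endothelial genes 0 passed in knockouts and 2 in controls, Plvap at -1.67 ± 0.25 (SE, limma adjusted p = 0.015) and Pecam1 at -1.05 ± 0.21 (limma adjusted p = 0.037). Of 9 mesothelial genes 1 was called lower in brown tissue of knockouts and 5 in controls. In each genotype 6 of 9 means were lower in brown tissue and 3 were higher, those of Krt8, Krt18 and Krt19. Wt1 and Upk1b were not well above background on any brown array. Of 9 mural genes 0 passed in knockouts and 1 in controls, Acta2, an actin also of smooth muscle, at 4.00 ± 0.56 (limma adjusted p = 0.011). Most mural genes lay on the other side, with 6 of 9 means lower in brown tissue of controls and a median of -0.47. Without the brown control sample on arrays 2 and 3 Acta2 was at 3.75 (limma adjusted p = 0.046), Plvap at -1.60 (0.064) and Pecam1 at -0.97 (0.140), and 1 mesothelial gene, Wt1, passed in controls and 0 in knockouts. Their part in the tissue differences of Cd34, Dcn and the other members was not tested.

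The knockout effect in brown minus that in white was tested as an interaction. It was called for 0 members and for 0% of all genes by limma (unadjusted p below 0.05 for 0 members and 401 genes), with 0 members and 634 genes (4.1%) called when the 16 arrays were counted separately. The largest interaction estimates were 0.72 ± 0.44 (SE) for Ly6a (unadjusted p = 0.149) and 0.72 ± 0.73 for Ccn5 (unadjusted p = 0.360). Pi16 was at 0.66 ± 0.75, Icam1 at 0.53 ± 0.99, Cd34 at 0.50 ± 0.56 and Dpp4 at 0.49 ± 0.69. Pdgfrb was at 0.05 ± 0.41, Dcn at -0.11 ± 0.43, Thy1 at -0.15 ± 0.95 and Pdgfra at -0.17 ± 0.70. The standard error exceeded the estimate for every member but Ly6a. Without the brown control sample on arrays 2 and 3 the estimates were 1.07 ± 0.66 for Ccn5, 0.83 ± 0.48 for Ly6a and 0.86 ± 0.80 for Pi16, and 0 members and 0 genes were called.

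Across the 4 groups, Ccn5 had the widest range of group means, 2.42 on the log2 scale, and Pdgfra the narrowest, 0.68. Ccn5 was highest in white controls, then brown controls, white knockouts and brown knockouts. The gap between its first 2 groups (1.23) and that between its last 2 (0.51) were larger than the SD of either group, and the gap between brown controls and white knockouts (0.68) was not. Cd34 and Pdgfrb had the same order, and only the gap between white and brown controls exceeded the SDs, 0.60 for Cd34 and 0.31 for Pdgfrb. Dcn was highest in white controls, then white knockouts, brown controls and brown knockouts, and the gap between the last 2 was 0.72, larger than the SDs, as was that between the first 2 (0.60), whose arrays overlapped. Dpp4 and Icam1 were both highest in white knockouts, then white controls, brown knockouts and brown controls. Only the gap between brown knockouts and brown controls exceeded the SDs for Dpp4 (0.91), and no gap did for Icam1. No gap between neighbouring groups exceeded the SDs for Pdgfra, Pi16, Ly6a and Thy1. Without the brown control sample on arrays 2 and 3 every member had the same order of groups, and the same gaps exceeded the SDs.

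As a description over the 9 samples, the genes outside the set whose levels followed a member most closely were taken by Pearson's r. For Ccn5 they were Oxtr, the oxytocin receptor (r = 0.943), and Btbd7 (r = 0.934). Ly6a was followed by its relative Ly6c2 (r = 0.973), a gene of monocytes, and by Srsf5 (r = 0.940). Dpp4 was followed by Fxyd5 (r = 0.986), which encodes a membrane glycoprotein that regulates the sodium pump, Pdgfrb by the secreted protease gene Htra1 (r = 0.984) and Cd34 by Lrrc17 (r = 0.989). Icam1 was followed by Mob3a (r = 0.994) and Actr2 (r = 0.991), a subunit of the actin-nucleating Arp2/3 complex. For Pdgfra the closest were Extl2 (r = 0.949) and D5Ertd579e (r = 0.943), for Pi16 Wipi1 (r = 0.976), for Dcn Hacd4 (r = 0.984) and for Thy1 Ctcf (r = 0.982). The samples share tissues, genotypes and slides, and with 15468 genes and 9 samples such values arise readily.

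For the brown genotype comparison the sample on brown control arrays 2 and 3, with its low Ucp1, was also left out. The differences were then -0.61 for Pdgfra, -0.51 for Pdgfrb, -0.32 for Pi16, -0.47 for Cd34 and -0.60 for Dcn. They were 1.0 for Dpp4, 0.13 for Ly6a, 0.86 for Icam1 and 0.88 for Thy1. Each had the sign it had with the sample, and 0 members were called. The file headers give the arrays of a slide 1 scan time, and 1 slide for each tissue held both genotypes. Within the brown one the differences were -0.68 for Pdgfra, -0.39 for Pdgfrb, 0.99 for Dpp4, -0.66 for Pi16 and 0.033 for Ly6a, and -0.54 for Cd34, 1.10 for Icam1, -0.72 for Dcn and 0.90 for Thy1. Within the white one they were -0.52 for Pdgfra, -0.47 for Pdgfrb, 0.34 for Dpp4, -1.24 for Pi16 and -0.74 for Ly6a, and -0.97 for Cd34, 0.40 for Icam1, -0.49 for Dcn and 0.99 for Thy1. All members kept the sign of the fit over all slides, and limma called 0 genes within either slide. The white slide held 1 array of every white sample, and the brown slide 1 array of every brown sample but control array 1. These differences therefore measured the same samples again, and the kept signs are no separate test. No slide held both tissues of a genotype.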

How the data were processed

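RNA of 16 tissue samples was hybridised to 1-colour Agilent arrays. Per the labels' protocols, total RNA was isolated with a Qiagen RNeasy kit and 500 ng were labelled with Cy3. Per the file headers, Agilent Feature Extraction 12.0.0.7 processed the scans, and the deposited files hold a background-corrected intensity for every spot, linear and not scaled across arrays. The authors' deposited value table gives probe means of that intensity without any scaling.

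Control spots and outlier spots were left out, the spots of a probe were averaged, and log2 values were set relative to each array's 75th percentile. Probes were named through RefSeq accessions (GRCm38.p6 table), which matched 28223 of 41174 probes to 19096 symbols. Gene coordinates are given only for the RefSeq promoters, since the array was designed on another assembly. A probe was kept if any group had it well above background on its 4 arrays, and the brightest kept probe represented a gene. Arrays of a group were averaged where the median absolute deviation of their difference over the scanner error was below 1, judged on 7764 bright probes. The joined pairs had ratios of 0.372 to 0.642 and the others 1.00 to 3.77. The 2 white control samples are close to that limit. Group means were fitted with limma 3.58.1 in R 4.3.3, with 5 residual degrees of freedom, Benjamini-Hochberg adjustment over 15468 genes and a threshold of 0.05. The script was tested on simulated data. Groups of 2 or 3 samples share a pooled estimate of spread, and the number of arrays limits the precision.

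The members, the lists, the averaging rule and the rule for named genes (all members, Nr3c1, and from each list at most 4 called genes or, with none called, the 2 of smallest p) were chosen with earlier results of these data known. Alternatives were the 16 arrays counted separately, random, replicate and slide terms, normexp background correction with an offset of 50, quantile normalization, the authors' table, other probe filters and leaving out each sample. Normexp used the median spot signal. Same-numbered arrays of the knockout tissues deviated together (r of 0.581 to 0.653), but arrays 2, 3 and 4 are 1 sample, so only 2 pairs are distinct. Across genotypes r was -0.626 to 0.020 in brown and -0.444 to 0.457 in white, where 3 of 4 same-numbered pairs were above 0.4 but differently numbered ones reached 0.468. Blocked on these pairs, the averaged samples gave 621 genes called between the knockout tissues, against 231 without the block.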

Additional observations from a re-analysis of the deposited data

How the results depend on the processing

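Each member was followed through every comparison and alternative, 1120 combinations in all. In 992 it had the same sign and was again not called, in 55 it passed the threshold and in 73 it had the opposite sign. Counting the 16 arrays separately gave 4726 genes and 6 members called between genotypes in brown, 6926 and 9 in white, 3980 and 1 between tissues of knockouts, 6077 and 4 of controls, and 634 genes in the interaction. With a replicate block these were 4978 and 8, 7111 and 9, 3903 and 2, 6172 and 5, and 323. The distinct sample as a random block gave 1 gene in brown, 103 in white, and 671 and 1728 between tissues. Slide as a term gave 1 in brown and 197 in white. Requiring every array above background gave 103 and 488 between tissues of knockouts and controls, and joining the white controls into 1 sample gave 140 and 167. The averaged samples with a replicate block of the knockout samples gave 621 and 1889, with 2 members called in controls, Icam1 and Dcn. Quantile normalization called 1 member there, Dcn. The joined white controls, the block of the knockout samples and the following alternative were chosen after seeing the data. Without the knockout samples on arrays 2, 3 and 4 of both tissues, 160 genes were called in white, 898 and 2341 between tissues of knockouts and controls (3 members in controls, Dpp4, Icam1 and Dcn) and 9 in the interaction. Leaving out 1 sample at a time gave 0 to 1 gene in brown, 0 to 1683 in white with 0 to 2 members, 112 to 1021 between tissues of knockouts with 0 to 1 member, 177 to 1743 of controls with 0 to 1, and 0 to 49 in the interaction. The count of 1683 came without white knockout array 1, as did that of 1743. The lowest tissue counts came without brown knockout array 1 (112) and without white control arrays 1 and 4 (177), and 1021 came without white knockout arrays 2, 3 and 4. Dcn was the member called between tissues, and Pdgfra and Cd34 were those called in white. Knockout samples do not enter the differences between control tissues. Leaving them out or blocking them left those differences as they were and changed only the pooled estimate of spread. Other causes were not tested.

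The opposite signs were the following. Without the 3-array knockout samples, the white differences were 0.36 for Pdgfra, -0.35 for Dpp4, -0.53 for Icam1 and -0.042 for Thy1, the brown one was 0.23 for Pi16, and the interaction was -0.23 for Pdgfrb and 0.29 for Thy1. With 16 separate arrays, with or without the replicate block, Ly6a was at -0.079 in brown, Pdgfra at 0.47, Cd34 at 0.13 and Thy1 at -0.052 between tissues of knockouts, and Pdgfra at 0.30 in the interaction. With slide as a term, Pdgfrb was at 0.15, Cd34 at 0.12 and Thy1 at -0.55 between tissues of controls, and Pdgfra at 0.89, Pdgfrb at 0.23, Cd34 at 0.55, Ccn5 at 0.45 and Thy1 at -0.64 of knockouts. The authors' unscaled values moved the median of all genes to 0.31 in brown, -0.23 in white, 0.25 and -0.43 between tissues of knockouts and controls, and 0.64 in the interaction. There Pdgfra was at 0.24, Pdgfrb at 0.025 and Cd34 at 0.18 between tissues of knockouts, Pdgfra at -0.21, Pi16 at -0.14 and Thy1 at -0.019 of controls, and Pdgfra at 0.45, Dcn at 0.51 and Thy1 at 0.47 in the interaction. The interaction of Dcn was 0.065 with normexp and 0.25 with quantile normalization, and that of Thy1 was 0.39 with all probes averaged.

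Leaving out 1 sample at a time, differences that crossed 0 ranged as follows. In brown, Pi16 ranged over -1.28 to 0.23 and Ly6a over -0.18 to 0.13. In white, Pdgfra ranged over -1.37 to 0.36, Dpp4 over -0.35 to 1.19, Icam1 over -0.53 to 1.27 and Thy1 over -0.042 to 1.97. Between tissues of knockouts, Pdgfra ranged over -0.90 to 0.83, Pdgfrb over -0.68 to 0.16, Dpp4 over -1.38 to 0.17, Cd34 over -0.76 to 0.56, Icam1 over -1.56 to 0.24 and Thy1 over -0.83 to 1.17. Of controls, Pdgfra ranged over -0.013 to 0.29 and Thy1 over -0.15 to 0.79. In the interaction, Pdgfra ranged over -1.04 to 0.69, Pdgfrb over -0.36 to 0.47, Dpp4 over -0.28 to 1.27, Pi16 over -0.10 to 1.42, Cd34 over -0.17 to 1.16, Icam1 over -0.37 to 1.44, Dcn over -0.54 to 0.31 and Thy1 over -1.16 to 0.85.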
